A study of Mus musculus with 12 samples.

Results

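Peaks of the transcription factor cJun and of the promoter mark H3K4me3 were described around 10 mouse genes that carry the incretin signal in β cells: the receptors Glp1r and Gipr, the G protein gene Gnas, the adenylyl cyclases Adcy5, Adcy6 and Adcy8, the protein kinase A subunits Prkaca and Prkar1a, the cAMP sensor Rapgef4 and the phosphodiesterase Pde3b. These genes were chosen by function, and every peak that overlapped a gene body extended by 50 kb on each side was taken, which gave 91 of the 44996 peaks in 4 lists. The peaks came from CUT&RUN, in which a nuclease tethered to an antibody cuts out the DNA next to the bound protein, in Min6, a line from a mouse insulinoma that serves as a β cell model. Cells were plated and grown for 3 days in all, and for the final 48 h received either SP600125 (JNKi, 20 µM), which blocks the kinases (JNKs) that phosphorylate cJun, or DMSO, its solvent and the control. The 12 samples were 2 biological replicates for each of 6 groups, which paired either treatment with a cJun, an H3K4me3 or an IgG antibody, and each list analysed here merged both cJun or both H3K4me3 replicates of a treatment. All groups came from the same cell line, which is a tumour line and not primary islet tissue.

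Glucagon-like peptide-1 and glucose-dependent insulinotropic polypeptide, the gut hormones called incretins, bind the receptors encoded by Glp1r and Gipr on β cells. The receptors act through the stimulatory G protein α subunit (Gnas) on adenylyl cyclases, which make cAMP, and cAMP acts on protein kinase A and on Epac2 (Rapgef4) to raise insulin secretion until phosphodiesterases such as Pde3b break it down. Protein kinase A phosphorylates CREB, which binds the cAMP response element (CRE), and cAMP is a known route to induction of Cck in β cells. cJun is a subunit of AP-1, which binds TGACTCA, a site that differs from the CRE TGACGTCA by an inserted base.

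Sequences of GRCm38 are given for the stretches that the results below turn on, each 5′ to 3′ on the strand of the gene. The Rapgef4 stretch at chr2:72021705-72021954 (plus strand) lies in an intronic cJun peak of the DMSO list, and capitals mark its AP-1 site. The Glp1r start-site stretch at chr17:30901422-30901605 (plus strand) lies in the JNKi cJun peak next to the gene start and has none of the motifs searched. The Gipr stretch at chr7:19165267-19165396 (minus strand) lies in the cJun peak of the DMSO list in the first intron, and capitals mark TGACG, the short form of the CRE. The Prkar1a stretch at chr11:109650750-109650920 (plus strand), from the RefSeq promoter table for GRCm38.p6, is shown because it was the member promoter with a whole CRE, in capitals. A separate TGACG near the upstream end of this Prkar1a stretch is left in lower case.
Rapgef4 intron: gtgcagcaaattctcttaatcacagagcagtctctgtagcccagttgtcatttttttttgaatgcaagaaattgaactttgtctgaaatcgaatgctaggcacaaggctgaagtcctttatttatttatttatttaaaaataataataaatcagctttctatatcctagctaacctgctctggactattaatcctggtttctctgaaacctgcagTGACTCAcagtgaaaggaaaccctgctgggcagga
Glp1r start site: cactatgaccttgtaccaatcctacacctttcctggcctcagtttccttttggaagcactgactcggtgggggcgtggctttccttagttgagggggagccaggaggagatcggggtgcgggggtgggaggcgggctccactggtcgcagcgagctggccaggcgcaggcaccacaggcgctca
Gipr first intron: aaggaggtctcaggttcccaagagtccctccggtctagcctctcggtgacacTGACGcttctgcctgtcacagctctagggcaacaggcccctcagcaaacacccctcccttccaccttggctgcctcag
Prkar1a promoter: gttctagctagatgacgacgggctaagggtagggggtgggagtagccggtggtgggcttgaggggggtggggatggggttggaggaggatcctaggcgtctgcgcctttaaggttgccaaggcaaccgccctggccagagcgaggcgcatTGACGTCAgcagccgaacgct

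The DMSO and JNKi lists were 4960 and 1632 peaks long for cJun, and 19372 and 19032 peaks long for H3K4me3. The read depth under a peak is unknown, as read totals were not used here. A list holds peaks called in both replicates of a treatment, so a count of peaks comes once per treatment and has no replicate error. Each peak also carries the −log10 p and the width from each replicate, in columns called the first and the second because the lists give no replicate number. With 2 replicates per treatment, a two-sided exact permutation test of a single peak cannot give a p below 0.333, so no test was made and it is stated whether the columns of the treatments overlap. No fit across peaks was made, since −log10 p depends on read depth as well as on enrichment. The irreproducible discovery rate (IDR) given for a peak is the estimated share of irreproducible peaks among those that repeat at least as well. Peaks were ranked in their list by the merged −log10 p, which was the lower of both columns in every peak. As a check of the cell type, H3K4me3 covered a start site of 9 of 10 β cell marker genes under each treatment (Ins1 was the exception) and of 1 of 18 markers of other pancreatic cells (Gcg). The share of all protein-coding genes was 57.3% in DMSO and 56.9% in JNKi. The β cell marker peaks stood above 0.0103% (Pdx1) to 94.6% (Nkx6-1) of the DMSO list. In JNKi the range was 5.79% (Neurod1) to 96.3% (Nkx6-1). The Gcg peak stood above 2.85% in DMSO and 28.9% in JNKi.

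cJun peaks lay near 6 of the 10 members in DMSO, namely Glp1r, Gipr, Gnas, Prkar1a, Rapgef4 and Pde3b, beside 28.4% of 21755 protein-coding genes. In JNKi they lay near 1 of the 10, Glp1r, beside 12.2% of all genes. No cJun peak of either list lay within 50 kb of Adcy5, Adcy6, Adcy8 or Prkaca, so the 3 cyclase genes and the catalytic subunit of protein kinase A had none. Of the 6 members with a DMSO peak, 5 had none in JNKi, and the same held for 64.1% of the 6172 protein-coding genes with a DMSO peak. With a window of 100 kb, 7 members had a cJun peak in DMSO, beside 40.5% of all genes, and 5 in JNKi, beside 19%, so the contrast of 6 with 1 depends on the window. In total 9 cJun peaks were found in DMSO and 2 in JNKi. None of them had an IDR of 0.05 or less, a level that 8.97% of the DMSO list and 15.6% of the JNKi list reached, and the lowest IDR was 0.180 in DMSO and 0.672 in JNKi. The map of peaks by distance from the gene starts shows the positions described below.

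**Figure D1:**
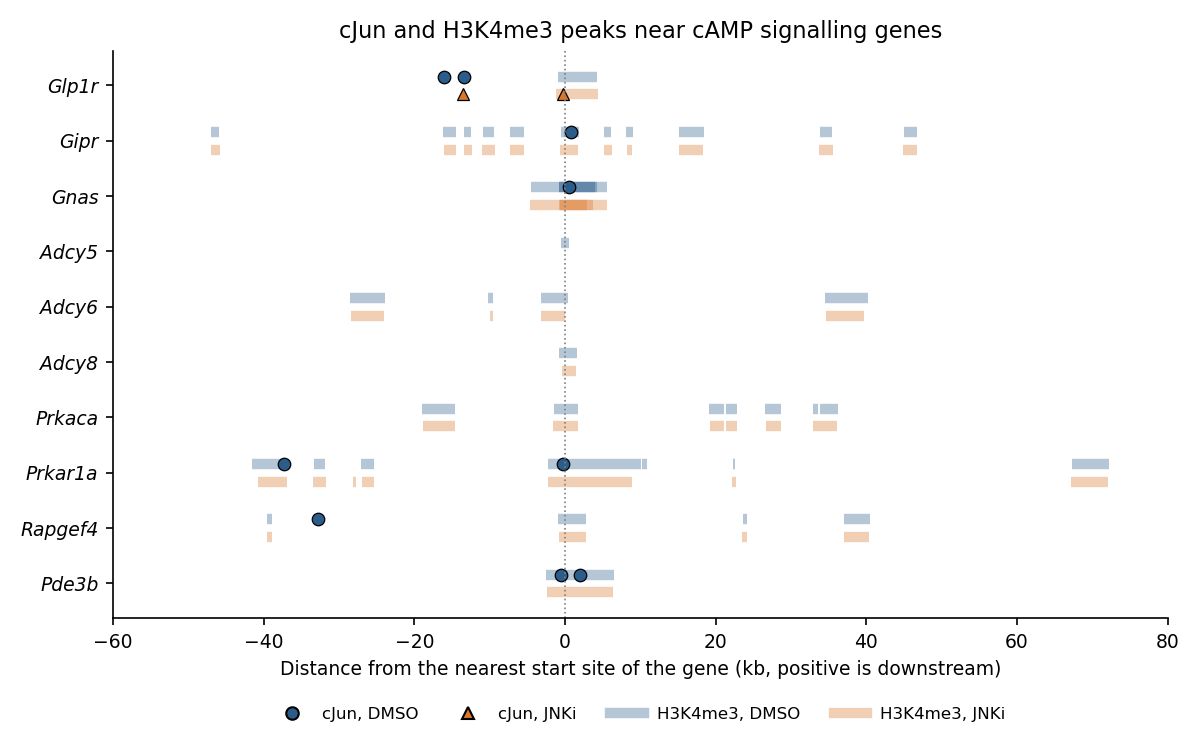
Positions of the peaks near each member, as distance in kb from the nearest annotated start site of that gene (negative is upstream). Circles (DMSO) and triangles (JNKi) are cJun summits and bars are H3K4me3 peaks at their full width. Distances are taken from the nearest of several starts, so the 3 Gnas domains lie over each other, and 1 H3K4me3 peak per treatment at Map3k20, 232 kb from the Rapgef4 start, is outside the plot. JNKi triangles appear at Glp1r and at no other member.

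Glp1r (chr17:30901817-30940791, plus strand) had the strongest member cJun peak and the cJun peak found under both treatments. In DMSO the peak at chr17:30887673-30889296 was 1624 bp wide, with −log10 p of 19.5 and 8.67, an IDR of 0.180 and rank 1079 of 4960. Its summit lay 13.4 kb upstream of the start site, in an intron of a long non-coding transcript that runs on the minus strand across the Glp1r start. In JNKi a peak of 1426 bp at chr17:30887711-30889136 lay inside it, with −log10 p of 3.48 and 9.12, an IDR of 0.672 and rank 1544 of 1632. The columns of the treatments overlapped, since the higher JNKi column (9.12) exceeded the lower DMSO column (8.67). Ranked by the merged value, which is that of the lower column, the peak stood above 78.3% of the DMSO list and above 5.395% of the JNKi list. Ranked column by column, the DMSO peak stood above 93.9% (first) and 64.1% (second) of its list. For the JNKi peak these values were 3.07% and 62.7%. Both JNKi values lay below both DMSO values, although 62.7% was close to 64.1%. The columns carry no replicate number, so they cannot be paired between treatments. The merged rank in JNKi follows its low first column. No H3K4me3 peak overlapped the upstream peak in either treatment.

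A further DMSO peak lay 16.1 kb upstream of Glp1r, at chr17:30884964-30886094, with −log10 p of 5.28 and 7.08, an IDR of 0.729, the highest value in its list, and rank 3059. It had no counterpart in JNKi. The other JNKi peak, at chr17:30901281-30901605, was 325 bp wide and lay 295 bp upstream of the Glp1r start site, with −log10 p of 4.58 and 3.64, an IDR of 0.672 and rank 1512 of 1632. DMSO had no peak there. Both columns of this peak were low in their list, above 15.4% and 3.56% of the JNKi peaks.

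Gipr (chr7:19156061-19166127, minus strand) had 1 cJun peak, in DMSO, at chr7:19164953-19165396. Its −log10 p was 5.65 and 7.34, its IDR 0.729 and its rank 2714. The summit lay 760 bp downstream of the start site in the first intron, and the TGACG printed above lay 27 bp from it, the closest of the motif matches to any member summit. TGACG is short, and DMSO peaks of Glp1r (332 bp from the summit), Prkar1a (212 bp) and Pde3b (291 and 370 bp) also held it. The share of all cJun peaks that hold TGACG was not counted. No cJun peak of the JNKi list lay within 50 kb of Gipr. Just outside the window, 61.4 kb from the gene body, a DMSO peak had rank 1282, and a JNKi peak at 61.7 kb had rank 1167. The member peak nearest to the window's edge on the inside was the Prkar1a peak at 37.0 kb described below.

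Gnas (chr2:174284320-174346744, plus strand) had 1 cJun peak, in DMSO, at chr2:174330595-174331037, 443 bp wide and 473 bp downstream of the nearest of its 7 start sites, in an intron. The columns gave 7.67 and 3.13, and the peak ranked 4850 of 4960 with an IDR of 0.729, as its second column was close to the lowest value in the list.

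Prkar1a (chr11:109649405-109669656, plus strand), the type I regulatory subunit of protein kinase A, had 2 cJun peaks in DMSO. The peak at chr11:109649365-109650381 was 1017 bp wide and was the member cJun peak that covered a start site of its own gene. Its columns gave 17.2 and 6.08, with an IDR of 0.5004 and rank 2395. It held a TGACG 212 bp from its summit and no whole CRE. The peak at chr11:109611974-109612403 had 3.37 and 9.84, an IDR of 0.729 and rank 4720, and lay 37.3 kb upstream of Prkar1a but 645 bp from the start site of Wipi1, an autophagy gene, so that Wipi1 was its nearest gene.

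Rapgef4 (chr2:71981240-72257474, plus strand), the longest member, had 1 cJun peak, in DMSO, in an intron at chr2:72021516-72022136. Its columns were close to each other, at 7.89 and 6.84, with an IDR of 0.363 and rank 1909 (above 61.5% of the list). The AP-1 site TGACTCA printed above lay 155 bp from its summit, beyond the 100 bp within which motifs were counted, and no H3K4me3 peak overlapped it. The nearest annotated start of Rapgef4 itself was 32.8 kb away.

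Pde3b (chr7:114415281-114539251, plus strand), which hydrolyses cAMP in β cells, had 2 cJun peaks in DMSO. The peak at chr7:114414088-114415130 had columns of 12.4 and 3.86, an IDR of 0.545 and rank 4328. Its summit lay 543 bp upstream of Pde3b and 283 bp from the start of the divergent lincRNA 4933406I18Rik, which the peak covered, so that it cannot be assigned to either gene. The peak at chr7:114417123-114417707 had 3.69 and 3.96, an IDR of 0.729 and rank 4453, and lay 1.99 kb downstream of the start in an intron. JNKi had no peak at either place.

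**Figure D2:**
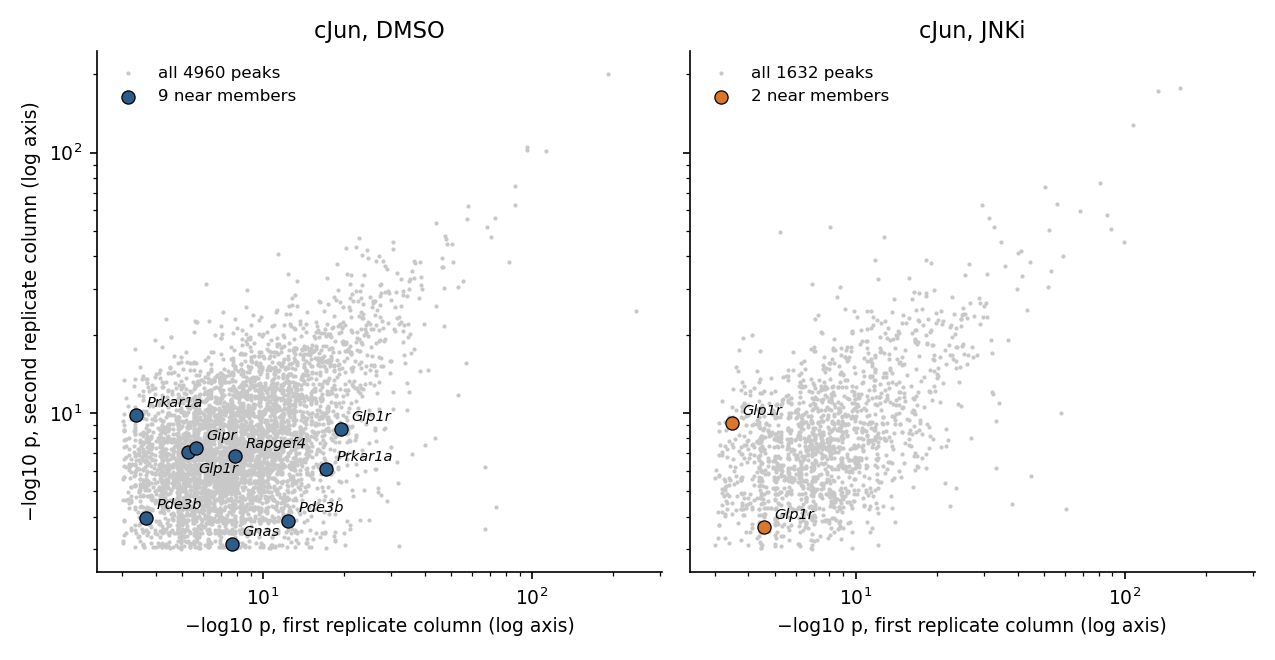
−log10 p of each cJun peak in the first (x axis) and second (y axis) replicate column, both on log axes, for DMSO (left, 4960 peaks) and JNKi (right, 1632 peaks). Grey points are all peaks and coloured points the 9 and 2 peaks near members. The member peaks lie within the cloud of the list, with the upstream Glp1r peak at 19.5 and 8.67 in DMSO, and none lies among the highest peaks of either list.

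The 9 DMSO peaks had a median rank above 38.3% of their list (range 2.22% to 78.3%), beside 50% for the list by construction. The 2 JNKi peaks stood above 5.395% and 7.36% of theirs. Their widths ranged from 430 to 1624 bp in DMSO (median 621 bp, list median 643 bp). Of the 9 DMSO peaks, 8 had no overlapping JNKi peak, beside 76.4% of the DMSO list, and 1 of the 2 JNKi peaks had no overlapping DMSO peak, beside 28% of the JNKi list. With a window of 100 kb, 29.4% of 17 DMSO peaks were overlapped by a JNKi peak. The share overlapped by a JNKi peak, 11.1%, had a 95% Wilson interval of 1.99% to 43.5%, which covers counting error over peaks and not replicate error.

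Of the 9 DMSO cJun peaks, 6 overlapped H3K4me3 of the same treatment (66.7%, Wilson interval 35.4% to 87.9%), beside 53.4% of the whole list, which lies within that interval. With 50% reciprocal overlap the share was 0%, beside 12.5% of the list, and with summits at most 200 bp apart it was 11.1%, beside 21.2%. In JNKi 0% of the 2 peaks met either rule, beside 13.6% and 21.9% of the list. The H3K4me3 peaks here were often many times wider than the cJun peaks, which limits reciprocal overlap. By the 1 bp rule, 1 of the 2 JNKi peaks overlapped H3K4me3, beside 55.5%. A cJun summit lay within 3 kb of a start site of 4 members in DMSO (Gipr, Gnas, Prkar1a and Pde3b), beside 7.76% of all protein-coding genes, and of 1 in JNKi (Glp1r), beside 2.88%. The DMSO peaks without H3K4me3 were both upstream Glp1r peaks and the intronic Rapgef4 peak.

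An AP-1 site (TGACTCA or, read from the other strand, TGAGTCA) within 100 bp of the summit was found in 0 of the 9 DMSO peaks (Wilson interval up to 29.9%), beside 10% of the list, and in 0 of the 2 JNKi peaks, beside 12.1%. Over the whole peak it was found in 2 of 9, Rapgef4 among them, beside 32.6%, and in 1 of 2, beside 35%. A whole CRE lay within 100 bp of the summit in 0 of 9 and 0 of 2, beside 0.806% and 1.78% of the lists. Both strands were searched, and each TGACGTCA also counts as a TGACG. In the promoters, taken as 250 bases upstream to 50 downstream of a start, RefSeq listed 15 sequences for 6 members (Glp1r, Gnas, Adcy5, Prkaca, Prkar1a and Rapgef4). Of these, 0 held an AP-1 site, beside 4.46% of 32817 promoters, and 1 held a CRE (Prkar1a), beside 1.55%. TGACG was in 7 of the 15, in promoters of Gnas, Prkaca and Prkar1a, beside 17.7% of all promoters. Several of the promoters of 1 gene overlap and share bases, so they are not separate observations.

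Peak density was set against the windows of all genes. Member windows held 4.61 cJun peaks per Mb in DMSO, beside 2.53 per Mb over the windows of all protein-coding genes, and in JNKi 1.02, from 2 peaks at Glp1r, beside 0.837. H3K4me3 peaks numbered 21.0 per Mb in DMSO, beside 11.2, and 20.0 beside 11.03 in JNKi. Member gene bodies were also long, with a median of 50.7 kb (10.1 to 276 kb) beside 17.4 kb over all genes. The share of all genes with a DMSO cJun peak in the window was higher for longer genes, at 23.9% below 20 kb and 41.5% above 100 kb, and in JNKi 10.5% and 17.4%, in length classes chosen after the data were seen. The part of gene length and of promoter density in the member count was not tested.

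**Figure D3:**
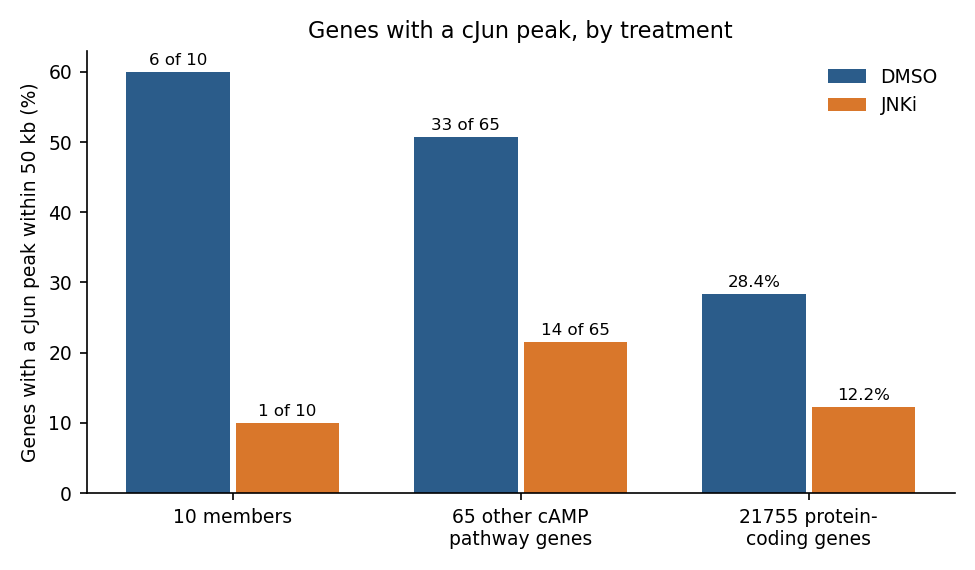
Percentage of genes with at least 1 cJun peak within 50 kb of the gene body in DMSO (blue) and JNKi (orange), for the 10 members, 65 other genes of cAMP signalling and all 21755 protein-coding genes. Counts or percentages stand above the bars, which have no error because each treatment has 1 list. In each set the DMSO bar is the taller, at 6 of 10, 33 of 65 and 28.4%.

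The other genes of the pathway were taken from a list of 65 receptors, G proteins, cyclases, kinase subunits, Epac and Rap genes, phosphodiesterases, anchoring proteins and CREB coactivators with their kinases. A cJun peak lay within 50 kb of 33 of them in DMSO (50.8%, beside 28.4% of all genes) and of 14 in JNKi (21.5%, beside 12.2%). Both treatments had a peak at 13 and neither at 31. Of the 33 genes with a DMSO peak, 20 had none in JNKi, beside 64.1% of all such genes, and of the 14 with a JNKi peak, 1 (Sik2, a kinase of CREB coactivators) had none in DMSO, beside 16.5%. These genes were also long, with a median body of 74.1 kb. Receptors (9 of 14 in DMSO, 4 of 14 in JNKi) and phosphodiesterases (9 of 14 and 4 of 14) had the highest counts and were the largest classes. Their share was 64.3% in DMSO and 28.6% in JNKi, and protein kinase A genes had the same share in JNKi (2 of 7). Anchoring proteins had 2 of 7 and 0 of 7. The cyclase genes of the list had 4 of 7 and 1 of 7, against 0 of the 3 cyclases among the members. Peaks with an IDR of 0.05 or less lay near 4 of the 65 genes under DMSO, beside 4.22% of all genes, and near 3 under JNKi, beside 2.74%.

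Of the genes with a cJun peak under both treatments, Pkig, an inhibitor of protein kinase A, had the lowest IDR in DMSO. Its peak lay within 3 kb of a start site in both lists and stood above 98.0% of the DMSO list (IDR 0.000965) and 79.3% of the JNKi list (IDR 0.0730). Gcgr, the glucagon receptor, had 2 peaks in DMSO, the best above 96.4% of the list (IDR 0.00869), and 1 in JNKi above 91.0% (IDR 0.0139). No H3K4me3 peak covered a Gcgr start site. Gnaz, an inhibitory G protein α subunit, had IDR values of 0.0321 and 0.0358. Pde4c, a cAMP phosphodiesterase, had 3 peaks in DMSO, the best above 81.1% of the list (IDR 0.134), and 1 in JNKi above 98.4% (IDR 0.000931), which overlapped none of the 3. The melatonin receptor gene Mtnr1b had 2 peaks in each treatment, the best above 78.5% in DMSO (IDR 0.224) and above 81.1% in JNKi (IDR 0.0839), and that JNKi peak overlapped no DMSO peak. The other Mtnr1b peak in JNKi, above 61.0% of the list (IDR 0.266), overlapped both DMSO peaks. Pde4d had 8 peaks in DMSO and 3 in JNKi, and Pde1c had 6 and 1. Their best DMSO peaks stood above 91.0% (Pde4d, IDR 0.0602) and 91.3% (Pde1c, IDR 0.0647) of the list. The best JNKi peaks stood above 8.34% and 0% of theirs, both with an IDR of 0.672. Rap1b, a small GTPase downstream of Epac, had 2 peaks in DMSO and 1 in JNKi. Pde4b, named after its values were seen as the remaining gene with an IDR of 0.05 or less in DMSO, had 6 peaks there, the best above 94.999% of the list (IDR 0.0104), and none in JNKi.

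H3K4me3 lay over the start sites of most members. In DMSO a peak covered at least 1 start site of 10 of the 10 members, beside 57.3% of protein-coding genes, and in JNKi of 9 of the 10, beside 56.9%. The member without one in JNKi was Adcy5, and 1.45% of the 12475 genes marked in DMSO were unmarked in JNKi. In total the windows held 41 H3K4me3 peaks in DMSO and 39 in JNKi. Of the 41, 2 had no overlapping peak in JNKi, beside 6.6% of the list, and of the 39, 1 had none in DMSO, beside 5.7%. With an IDR of at most 0.05 the counts were 6 of 10 in DMSO, beside 51.6% of all genes, and 5 of 10 in JNKi, beside 51.8%. The start-site peaks of Glp1r (IDR 0.0781 in DMSO and 0.282 in JNKi), Pde3b (0.306 and 0.0971) and Prkar1a (0.306 and 0.282) were above that limit in both treatments, although at least 1 of their columns was high.

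Glp1r carried the highest start-site H3K4me3 of the members in DMSO. Its columns gave 699 and 639 in DMSO (rank 40 of 19372) and 803 and 806 in JNKi (rank 11 of 19032), over 5.16 and 5.51 kb. A peak in the top 1% of its list was found at the start sites of 1.78% of marked genes in each treatment, and of the members at Glp1r in DMSO and at Glp1r and Pde3b in JNKi. Gipr, the other incretin receptor, was weaker, with 235 and 201.3 in DMSO (rank 6209) and 258 and 243 in JNKi (rank 5985), and its peak was 2.32 and 2.31 kb wide. The columns of the 2 receptor genes did not overlap within either treatment.

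The 3 adenylyl cyclases covered most of the range. Adcy6 had 445 and 433 in DMSO (rank 794) and 512 and 484 in JNKi (rank 850). Adcy8, a calcium-stimulated cyclase, had 18.6 and 29.6 in DMSO (rank 13948) and 14.3 and 6.003 in JNKi (rank 17614), over 2.34 and 1.93 kb. Adcy5 had a peak of 1.13 kb in DMSO with columns of 3.82 and 8.78 and rank 19089 of 19372, and no peak in JNKi. The Adcy5 peak was thus close to the calling limit of about 3 in its weaker column, and its loss is a loss of 1 of the weakest peaks of the list.

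Of the protein kinase A genes, Prkaca had 505 and 478 in DMSO (rank 434) and 547 and 573 in JNKi (rank 370). Rapgef4 had 293 and 249 in DMSO (rank 4731) and 407 and 379 in JNKi (rank 2388). Of the 11 start-site peaks of members that matched between treatments, both JNKi columns stood above both DMSO columns at 7 (Glp1r, Gipr, the most downstream Gnas domain, Adcy6, Prkaca, Rapgef4 and Pde3b), beside 30.3% of 11319 matched start-site peaks. At 1, Adcy8, both JNKi columns stood below both DMSO columns, beside 5.03%, and at 3 (Prkar1a and the other Gnas domains) the columns overlapped. The median −log10 p of the whole list was also higher in JNKi (114) than in DMSO (94.0), and its part in these counts was not tested.

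**Figure D4:**
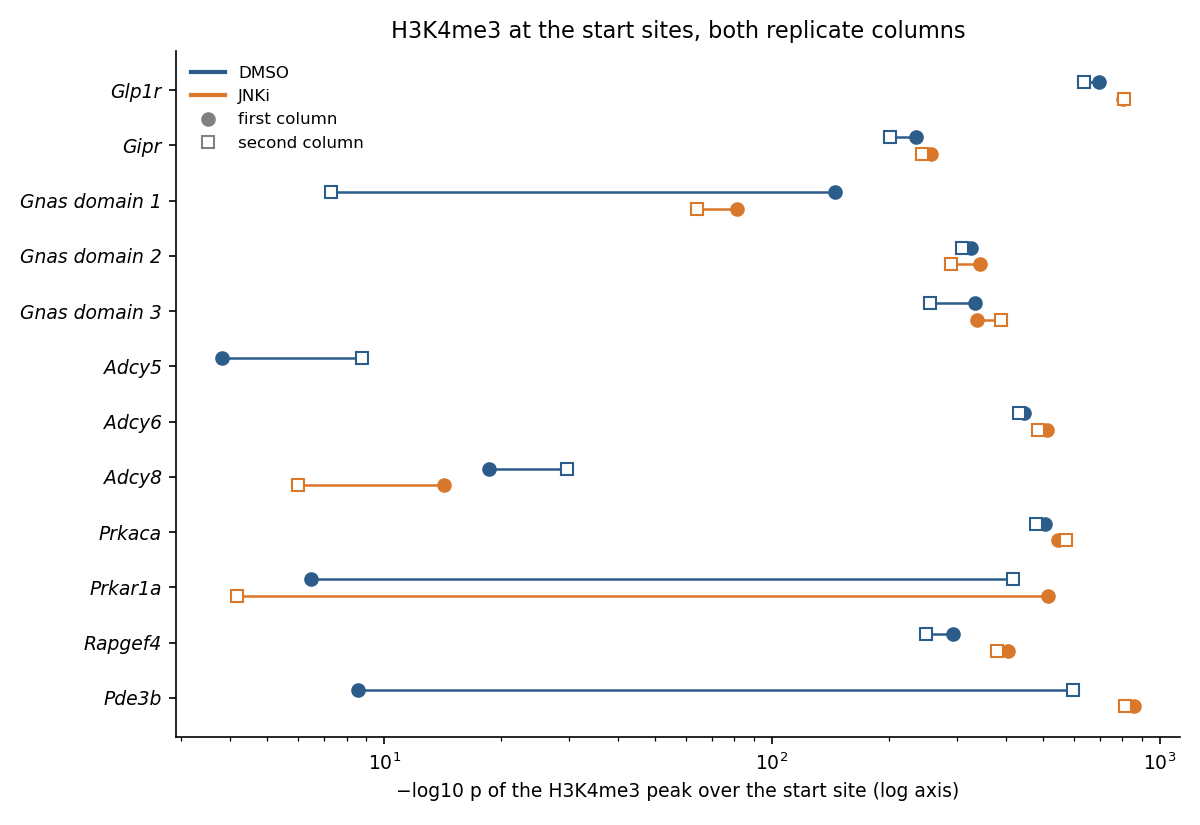
−log10 p (log axis) of the H3K4me3 peaks over the start sites of each member in DMSO (blue) and JNKi (orange). Filled circles are the first and open squares the second replicate column, joined by a line, and Gnas has 3 domains numbered from upstream. Long lines mark peaks whose columns differ by over 10-fold, at Prkar1a in both treatments and at Pde3b and Gnas domain 1 in DMSO.

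At some of the widest start-site peaks the replicate columns differed greatly. Pde3b had 8.57 and 596 in DMSO, which put it at rank 16447, and 858 and 814 in JNKi, where it ranked 8. Prkar1a had 6.47 and 417 in DMSO and 516 and 4.19 in JNKi, so the low value was in the first column in DMSO and in the second in JNKi. The most upstream Gnas domain had 146 and 7.30 in DMSO and 81.2 and 63.9 in JNKi. The widths called in the replicates were alike at Pde3b in DMSO (8548 and 9026 bp) and at Prkar1a (11808 and 12367 bp in DMSO), while their summits lay 2.06 kb and 1.18 kb apart. Over the whole list, columns differed by over 10-fold, a limit chosen after the data were seen, in 2.11% of DMSO and 2.07% of JNKi peaks, and in 14.3% and 15.8% of peaks of 5 kb or more. The median distance between replicate summits was 863 bp in such DMSO peaks and 34 bp in the others. The rank of Pde3b in DMSO, of the most upstream Gnas domain in DMSO and of Prkar1a in both treatments thus follows 1 low column. With peaks ranked by the stronger column of each, Pde3b stood above 98.3% of the DMSO list and 99.93% of the JNKi list, and Prkar1a above 88.3% and 92.4%.

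The widths called in the replicates differed by at most 1.31-fold at any start-site peak of a member, and the members had both broad and narrow domains. A start-site peak of 5 kb or more was found at 4 of the 10 members in DMSO, beside 5.27% of marked genes, and at 4 of the 9 marked in JNKi, beside 5.46%, and in both treatments these were Glp1r, Gnas, Prkar1a and Pde3b. Gnas, an imprinted locus with several alternative start sites, had 3 domains that summed to 19.9 kb in DMSO and 18.2 kb in JNKi. The Prkar1a domain was 12.4 kb in DMSO, the 10th widest peak of the whole list, and 11.2 kb in JNKi, the 24th widest. The Pde3b domain was 9.03 and 8.78 kb wide. The median summed width over all marked genes was 2.68 kb in DMSO and 2.74 kb in JNKi. Gipr (2.32 kb), Adcy8 (2.34 kb) and Adcy5 (1.13 kb) lay below it in DMSO.

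**Figure D5:**
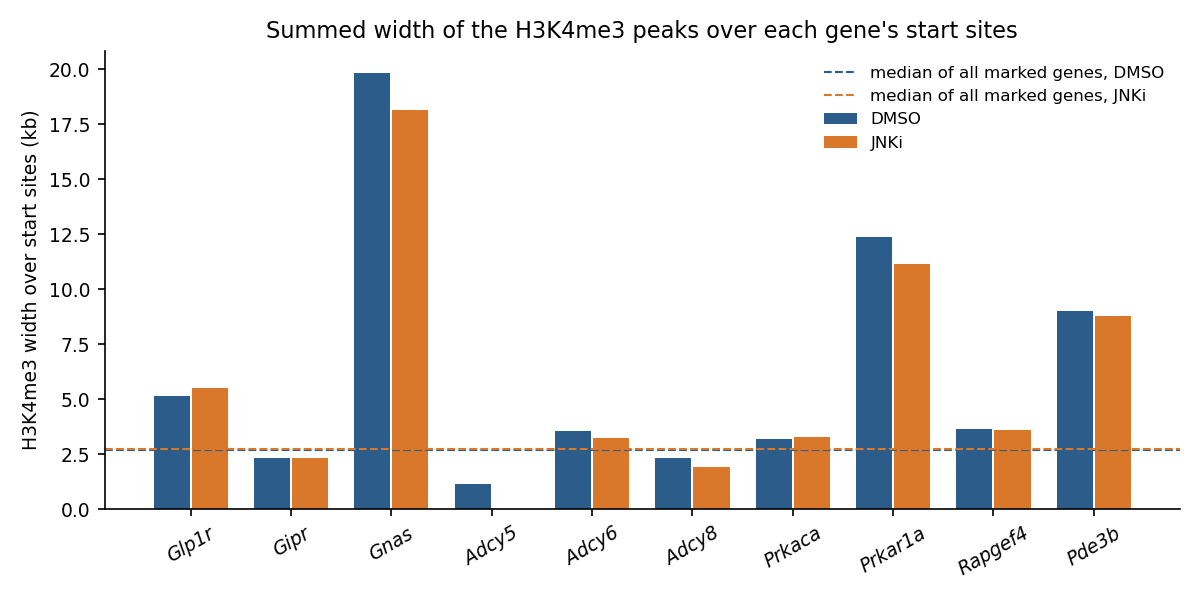
Summed width in kb of the H3K4me3 peaks over the start sites of each member in DMSO (blue) and JNKi (orange), with the median over all marked protein-coding genes as dashed lines. Gnas (19.9 and 18.2 kb), Prkar1a and Pde3b stand far above the medians of 2.68 and 2.74 kb, and Adcy5 has no bar in JNKi.

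Widths were then compared between treatments. The median ratio of JNKi to DMSO width was 0.972 over the 9 members marked in both (range 0.822 at Adcy8 to 1.07 at Glp1r), and over 12294 genes it was 1.01, with 0.863 and 1.17 as the 5th and 95th percentiles. Of the 9 members, 8 lay within these percentiles and Adcy8 lay below them. By the widths called in each replicate, Adcy8 had 2027 and 2310 bp in DMSO and 1531 and 1912 bp in JNKi, so the treatments did not overlap, with up to 1.25-fold between replicates of a treatment. Of the 11 matched start-site peaks, both JNKi widths were below both DMSO widths at 3 (Adcy8, Prkar1a and the most upstream Gnas domain), beside 15% of all matched peaks, and above them at 1 (Glp1r), beside 19.6%. At the other 7 the widths overlapped, beside 65.4%.

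The windows also held H3K4me3 peaks away from the members' starts. In DMSO 12 of the 41 peaks covered a start site of a member, 15 covered a start site of another gene and 14 covered none, and in JNKi the counts were 11, 15 and 13. Gipr had the most crowded window with 11 peaks in each treatment, among them peaks over starts of Fbxo46, Qpctl and Snrpd2, Eml2 and Gpr4. The Prkaca window held peaks over starts of Asf1b and Samd1, the Adcy6 window of Ccnt1 and Cacnb3, the Prkar1a window of Wipi1 and Fam20a, and the Rapgef4 window of Map3k20. In contrast, Glp1r, Pde3b and Adcy8 had a single H3K4me3 peak each, over their own start. In the Rapgef4 gene body a peak of 3519 bp at chr2:72091625-72095143 covered no annotated start. Its columns gave 184 and 170 under DMSO and, for the matching JNKi peak, 206 and 184, and its DMSO summit lay 38.5 kb downstream of the nearest annotated Rapgef4 start.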

How the data were processed

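The 12 CUT&RUN samples of the Min6 line were sorted by their labels into 6 groups with 2 biological replicates in each, and 550000 cells went into a reaction. The authors trimmed reads with Trimmomatic, aligned them to GRCm38 with Bowtie2 2.4.2, filtered alignments with SAMtools 1.16, called narrow peaks against IgG with MACS2 2.2.7.1 and paired replicates by IDR. The 4 deposited lists have 20 columns each and hold, per merged peak, a position, the −log10 p-value of the merged peak and of each replicate, a score and the IDR as −log10. The deposited score, a scaled IDR, was not used to rank peaks. Reads, coverage and the IgG libraries were not analysed here, so depth, duplicates and background at a peak are unknown. The lists hold no read counts, so no count test was used. The study's methods name default peak calling, whereas the lowest deposited −log10 p was just above 3.

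Gene bodies and start sites came from GENCODE vM21 on the same build, over 21755 protein-coding genes outside chromosomes M and Y. A peak belonged to a member when it overlapped the gene body extended by 50 kb, and overlaps needed 1 bp. Start-site peaks were matched between treatments where each overlapped 1 peak of the other list and no more. Reference sequence up to 100 bp from each summit was scanned for motifs. The sequence of 1 peak is not reported here. Intervals are 95% Wilson intervals. Every member peak was accounted for, and of the 65 other pathway genes, up to 8 with a cJun peak in both treatments were named by lowest IDR in DMSO. The members, the gene lists and the alternatives were chosen with earlier results of these data known. The steps were tested on simulated data. Tools were Python 3.11.15, pandas 2.3.3, numpy 2.4.6, matplotlib 3.10.9 and SciPy 1.17.1. Alternatives covered the IDR limit, window, overlap, motif window, start sites and ranking column.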

Additional observations from a re-analysis of the deposited data

How the results depend on the processing

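Of 87 alternative values for 21 results, 37 moved beyond a tolerance of 1.5 times for a count, the 95% Wilson interval for a share, and the difference between both replicate columns for a rank or width. The other 50 were within it, but for shares of 9 and 2 peaks the interval is wide: over the whole peak the AP-1 share was 22.2% in DMSO and 50% in JNKi, and by the stronger column the median JNKi cJun rank was above 26.4% of the list. An IDR limit of 0.05 or 0.01 left 0 member cJun peaks in either treatment, so 0 members had a peak within 50 kb and 0 had a summit within 3 kb of a start site, and the shares, motif counts and ranks of cJun peaks had no value under it. The same limits left 27 and 25 H3K4me3 peaks in the windows in DMSO, and 6 and 5 members in DMSO and 5 and 4 in JNKi with a marked start site. The IDR limit also removed strong H3K4me3 peaks, such as that over Glp1r in JNKi (IDR 0.282 at rank 11). A window of 10 kb gave 1 cJun peak in JNKi, 25 and 23 H3K4me3 peaks in DMSO and JNKi, a share kept of 0% in both treatments, 100% of JNKi cJun peaks over H3K4me3 and a median cJun rank above 29.0% of the DMSO list. A window of 100 kb gave 17 cJun peaks near 7 members in DMSO, and in JNKi 6 peaks near 5 members with a median rank above 38.5% of the list, and a share kept of 29.4% in DMSO and 66.7% in JNKi. With 50% reciprocal overlap, 0% of cJun peaks lay over H3K4me3 in both treatments, and with summits at most 200 bp apart 11.1% in DMSO and 0% in JNKi. Ranked by the first column, the median DMSO cJun peak stood above 48.9% of the list, and by the second column above 45.3% in DMSO and 33.1% in JNKi. By the second column, the median start-site H3K4me3 peak in JNKi stood above 86.7% of its list. All alternatives for the start-site H3K4me3 rank and for summits within 3 kb, and the ranking by the stronger column, were added after the data were seen.

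No paired analysis was possible because the merged lists carry no replicate numbers to pair by and no test between treatments was made. Leaving out a replicate was not possible because each list holds peaks called in both. The median width ratio of the start-site H3K4me3 domains stayed between 0.972 and 0.994 under its 3 alternatives. The main limits are 2 replicates per treatment merged into 1 list, unknown read depth, and the lower column setting the rank.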
